A study of Homo sapiens with 9 samples.

Results

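The protein disulfide isomerases (PDIs) and the ER oxidases that serve them were followed across 9 RNA-Seq libraries of H1975 cells, a human lung adenocarcinoma line. The 10 genes were taken by symbol from the 61544 genes that were counted, and they are P4HB, PDIA3, PDIA4, PDIA5, PDIA6, TXNDC5, TXNDC11, ERO1A, ERO1B and PRDX4. All 10 passed the filter on low counts, which left 18653 genes for testing. Every library came from cells that had first received si78, an siRNA against the 3′UTR of the GRP78 transcript, for 24 h. A plasmid was then transfected for 48 h. The 3 vector libraries had empty pcDNA3, the 3 F-78(WT) libraries had FLAG-tagged wild-type GRP78, and the 3 F-78(NLS Mut) libraries had FLAG-tagged GRP78 with a mutated nuclear localization signal. Neither F-78 plasmid carries the sequence that si78 targets. The vector group is therefore GRP78-depleted cells and not untreated cells, and H1975 cells without si78 were not analysed here. All libraries came from 1 cell line, and the labels do not say whether the 3 libraries of a group were separate cultures, so the p-values measure the spread between these libraries, which may be technical.

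Secreted and membrane proteins acquire their disulfide bonds in the ER. PDIs carry pairs of cysteines, usually in a Cys-Gly-His-Cys motif, that pass a disulfide to a folding protein or rearrange a wrong one. The ERO1 oxidases recharge the PDIs with electrons going to oxygen, which yields hydrogen peroxide, and PRDX4 uses that peroxide to make further disulfides. GRP78, the ER form of HSP70, works beside these enzymes and also holds the sensors of the unfolded protein response (UPR) in check, and many ER folding genes are known targets of the UPR. Highly secretory cells, among them lung epithelial cells, make much of this machinery.

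Active sites of the Cys-Gly-His-Cys kind were searched for in the coding sequence of each gene, since this motif is the usual one in PDIs. The codons for Cys-Gly-His-Cys were found at 13 sites in 6 of the 10 genes, with 3 sites each in PDIA4 and TXNDC5, 2 each in P4HB, PDIA3 and PDIA6, and 1 in PDIA5. None was found in TXNDC11, ERO1A, ERO1B or PRDX4. Cysteine pairs with the same spacing but other residues between them were not counted as sites. PDIA5 also held Cys-Ser-Met-Cys and Cys-Pro-His-Cys, and TXNDC11 held Cys-Glu-Leu-Cys and Cys-Gly-Phe-Cys. ERO1A and ERO1B held such pairs too, and PRDX4 held none. The 13 sites used 8 different spellings of the 4 codons, and the most frequent, TGTGGACACTGC, stood at 4 of them. The sites of the 4 PDI genes with the highest level per kilobase are printed here, read from GENCODE release 29 transcripts (GRCh38) in the direction of translation, with the codons for the motif in capitals. Coordinates that cover more than 30 bases span the intron at an exon junction.

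PDIA4 site 1 (chr7:149019176-149020974, minus strand, exons 2 and 3, codons 91 to 94): gctccatggTGTGGACATTGCaagcagttt

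PDIA4 site 2 (chr7:149012339-149014911, minus strand, exons 4 and 5, codons 206 to 209): gccccatggTGTGGACACTGCaagaaactt

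PDIA4 site 3 (chr7:149004049-149004078, minus strand, exon 10, codons 555 to 558): gcgccatggTGCGGGCACTGCaagcagcta

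PDIA6 site 1 (chr2:10797736-10802506, minus strand, exons 4 and 5, codons 107 to 110): gctccatggTGTGGTCACTGTcaaagatta

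PDIA6 site 2 (chr2:10790830-10791820, minus strand, exons 8 and 9, codons 242 to 245): gctccttggTGTGGACACTGCaaaaaccta

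P4HB site 1 (chr17:81859356-81859385, minus strand, exon 2, codons 53 to 56): gccccttggTGTGGCCACTGCaaggctctg

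P4HB site 2 (chr17:81845711-81845740, minus strand, exon 9, codons 397 to 400): gccccatggTGTGGTCACTGCaaacagttg

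PDIA3 site 1 (chr15:43746699-43753845, plus strand, exons 1 and 2, codons 57 to 60): gccccctggTGTGGACACTGCaagagactt

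PDIA3 site 2 (chr15:43769587-43769616, plus strand, exon 10, codons 406 to 409): gccccttggTGTGGTCACTGTaagaacctg

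Each library held 17671055 to 27476298 counted reads. HSPA5, the gene of GRP78, stood at 359 to 391 CPM (read counts scaled to a common library size with TMM factors) in the vector libraries and at 4765 to 6145 CPM in the 6 F-78 libraries. The transfected and the endogenous transcript cannot be told apart in these counts. The epithelial markers EPCAM, KRT8, KRT18, KRT19 and CDH1 were all present and summed to 3114 to 3656 CPM. The 8 leukocyte, endothelial and stromal markers summed to 13.8 to 19.9 CPM, and CD3E, CD68 and DCN were at 0 in all libraries. The vector libraries differed among themselves in how counts varied with gene GC content. Log2 CPM was taken relative to each gene's mean over the 9 libraries. It changed by 0.11 and 0.12 for each 10 points of gene GC content in vector replicates 2 and 3. The change was -0.05 in vector replicate 1 and -0.08 to 0.03 in the 6 F-78 libraries. Vector replicate 1 thus lay within the range of the F-78 libraries, and leaving it out keeps the 2 vector libraries that lay outside that range. Calls on the 10 genes that change without vector replicate 1 are given both ways, with the value after a GC correction of all 9 libraries.

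Levels of the 10 genes were compared with each other as CPM per kilobase of exon. Sums of CPM over several genes were not scaled by length. PDIA4 was the most abundant of the 10 transcripts, with a mean of 728 CPM per kilobase over the 9 libraries and a range of 608 to 866. By this measure it made up 52.6% of the summed level per kilobase, and its share was smaller by each alternative measure given below. PDIA3 followed at 203 CPM per kilobase, PDIA6 at 161 and P4HB at 150, with libraries of PDIA6 and P4HB that overlapped. PRDX4 came next at 74.2 CPM per kilobase and ERO1A at 36.1. TXNDC11 at 16.6 and PDIA5 at 14.03 overlapped each other. ERO1B at 1.40 and TXNDC5 at 1.28 were lowest and also overlapped.

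The order of the middle genes depended on how reads and length were counted. P4HB, PDIA3 and PDIA6 share exonic bases with genes on the opposite strand, and reads there were dropped as ambiguous when strand was disregarded. When the counts of both strands were summed, PDIA6 held 157% to 160% of its unstranded count, P4HB 143% to 154% and PDIA3 122% to 129%, whereas PDIA4, PDIA5, TXNDC5, ERO1B and PRDX4 held 100%. The order was then PDIA6 at 256 CPM per kilobase, PDIA3 at 252 and P4HB at 226. Since reads fell evenly on both strands, these sums can also hold reads of the genes on the opposite strand and may be too high. With the transcript of the longest coding sequence as length, P4HB followed PDIA4 at 305 CPM per kilobase. Both alternatives were added after the data were seen, and in each PDIA4 came first, with PRDX4 and then ERO1A below PDIA3, PDIA6 and P4HB. Summing the strands does not recover reads in bases shared with a gene on the same strand. TXNDC5 shares 60.6% of its exonic bases with the read-through gene BLOC1S5-TXNDC5 on the same strand. That gene was itself at 0 in every library, so the level of TXNDC5 is uncertain. PDIA5 shares 12.2% of its exonic bases with SEC22A on the same strand, so its level may be too low.

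**Figure D1:**
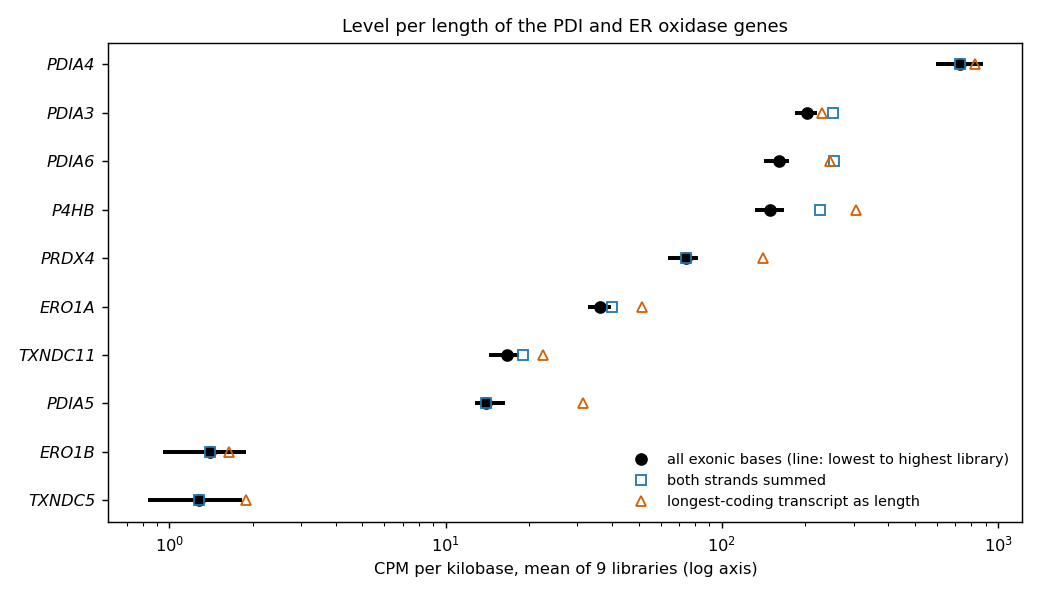
Level of each gene in CPM per kilobase on a log axis, mean of 9 libraries, by exonic length (black, with a line from the lowest to the highest library), with both strands summed (squares) and by transcript length (triangles). PDIA4 is first by each measure, at 728 CPM per kilobase of exon, whereas PDIA3, PDIA6 and P4HB change places between them.

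The comparison of the 2 F-78 groups asks what the nuclear localization signal of GRP78 does to these genes. PDIA4 was the gene of the 10 that passed the threshold (adjusted p under 0.05, edgeR's quasi-likelihood test over all 18653 genes), and it was higher with F-78(WT). The log2 fold changes were positive for 7 genes and negative for 3, with a median of 0.11, against a median of -0.01 over all tested genes. Of all tested genes, 0.504% were called in this comparison. In 6 of the 10 genes the CPM values of the 2 groups did not overlap, and this held for 17.7% of all tested genes. P4HB, PDIA3, PDIA4, PDIA5 and PDIA6 had all 3 F-78(WT) libraries above all 3 F-78(NLS Mut) libraries, and PRDX4 had them below.

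F-78(WT) against vector asks what wild-type GRP78 does when it is returned to depleted cells. None of the 10 genes passed the threshold with edgeR, 3 had an unadjusted p under 0.05, and DESeq2 called 0. Of all tested genes, 0.558% were called. The log2 fold changes were positive for ERO1A and negative for the other 9, with a median of -0.07. The groups did not overlap for ERO1B and TXNDC11, against 13.1% of all tested genes.

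F-78(NLS Mut) against vector asks the same of the mutant. PDIA4 passed the threshold and was lower with F-78(NLS Mut), whereas 0.793% of all tested genes were called. The log2 fold changes were positive for ERO1A and PRDX4 and negative for the other 8, with a median of -0.18. The groups did not overlap for PDIA3, PDIA4, PDIA6 and ERO1B, against 18.1% of all tested genes. The same 3 vector libraries enter both comparisons with vector, which are not independent of each other.

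**Figure D2:**
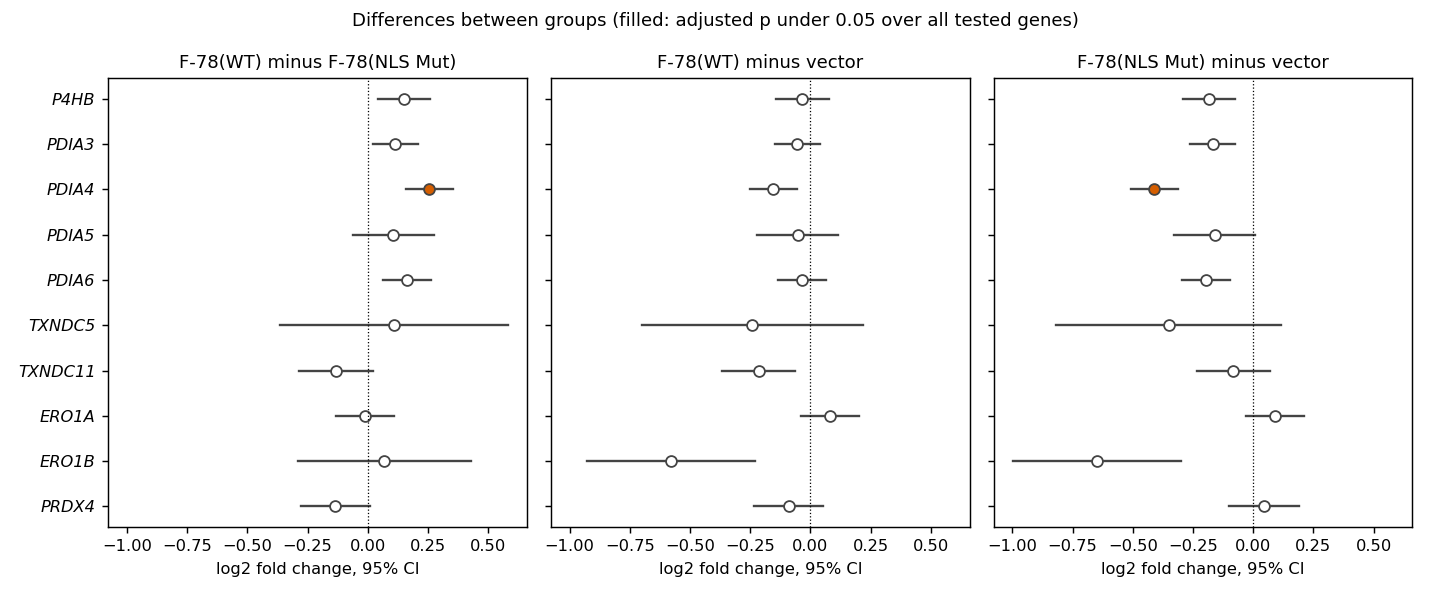
Log2 fold change of each gene in the 3 comparisons, with its 95% confidence interval and a filled point where the adjusted p was under 0.05. PDIA4 is filled in 2 panels, at 0.26 between the 2 F-78 groups and at -0.41 between F-78(NLS Mut) and vector.

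PDIA4 (also called ERp72), a PDI with an extra active-site domain that is found in complexes with GRP78 and GRP94, carried the 3 sites printed first above. Its gene lies on chromosome 7 from 149003062 to 149028641. It stood at 2449, 2809 and 2838 CPM in vector replicates 1, 2 and 3, at 2323, 2460 and 2489 with F-78(WT), and at 1992, 2066 and 2033 with F-78(NLS Mut). All F-78(NLS Mut) libraries were below all others, and F-78(WT) overlapped vector since vector replicate 1 was lower than 2 of the F-78(WT) libraries. The means were 2699 ± 217 CPM (SD, n = 3) in vector, 2424 ± 88.4 with F-78(WT) and 2031 ± 37.3 with F-78(NLS Mut).

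PDIA4 was 19.4% higher with F-78(WT) than with F-78(NLS Mut), with a 95% confidence interval of 11.6% to 27.7%. On the log2 scale this was 0.26, with an SE (standard error) of 0.047 and an adjusted p of 0.0057 by edgeR. Against vector, PDIA4 fell by 24.8% with F-78(NLS Mut), or -0.41 on the log2 scale (SE 0.047, adjusted p = 9.1e-06 by edgeR). F-78(WT) differed from vector by -0.15 (SE 0.047), which missed the threshold at an adjusted p of 0.15 by edgeR. The difference from F-78(NLS Mut) was called in all 9 settings that kept every library, and the values lay between 0.25 and 0.26. It missed the threshold without F-78(WT) replicate 3, at 0.24 (adjusted p = 0.059 by edgeR), and without F-78(NLS Mut) replicate 1, at 0.25 (adjusted p = 0.055 by edgeR). Without vector replicate 1, F-78(WT) was also called lower than vector, at -0.22 (adjusted p = 6e-05 by edgeR), whereas after the GC correction it was not, at -0.11 (adjusted p = 0.17 by edgeR).

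Of the 5 epithelial markers, 2 moved with PDIA4 between the F-78 groups. CDH1 differed by 0.27 on the log2 scale (adjusted p = 0.036 by edgeR) and KRT19 by 0.23 (adjusted p = 0.044 by edgeR), both higher with F-78(WT). KRT8 at 0.15 and KRT18 at 0.12 had unadjusted p-values of 0.0062 and 0.031 with edgeR but missed the adjusted threshold, and EPCAM was at -0.0034. The F-78 groups did not overlap in 4 of the 5, and this held for 17.7% of all tested genes. CDH1 was also called lower with F-78(NLS Mut) than with vector, by -0.25 (adjusted p = 0.044 by edgeR), as PDIA4 was. The summed markers ranged from 3489 to 3617 CPM with F-78(WT), from 3114 to 3234 with F-78(NLS Mut) and from 3231 to 3656 in vector, and their part in the result was not tested. HSP90B1, the gene of GRP94, was 20.3% higher with F-78(WT) than with F-78(NLS Mut), or 0.27 on the log2 scale (adjusted p = 5.7e-04 by edgeR). It was called lower with F-78(NLS Mut) than with vector, by -0.28 (adjusted p = 2.7e-04 by edgeR), as PDIA4 was. Between F-78(WT) and vector HSP90B1 did not differ at the threshold, at -0.02 with a 95% interval of -0.10 to 0.07. HSPA5 was at 5031, 5814 and 6145 CPM with F-78(WT) and at 4962, 5156 and 4765 with F-78(NLS Mut), so the groups overlapped. The difference was 0.19 on the log2 scale in the same direction (adjusted p = 0.079 by edgeR). It was called in 4 of the 9 settings that kept every library, with the replicate block (adjusted p = 0.029 by edgeR) and the GC correction (adjusted p = 0.026 by edgeR) among them. It was also called without vector replicate 1 (0.20, adjusted p = 0.0039 by edgeR), vector replicate 3 (0.20, adjusted p = 0.048 by edgeR) or F-78(WT) replicate 1 (0.28, adjusted p = 0.0025 by edgeR). The part of the HSPA5 level in the PDIA4 result was not tested.

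**Figure D3:**
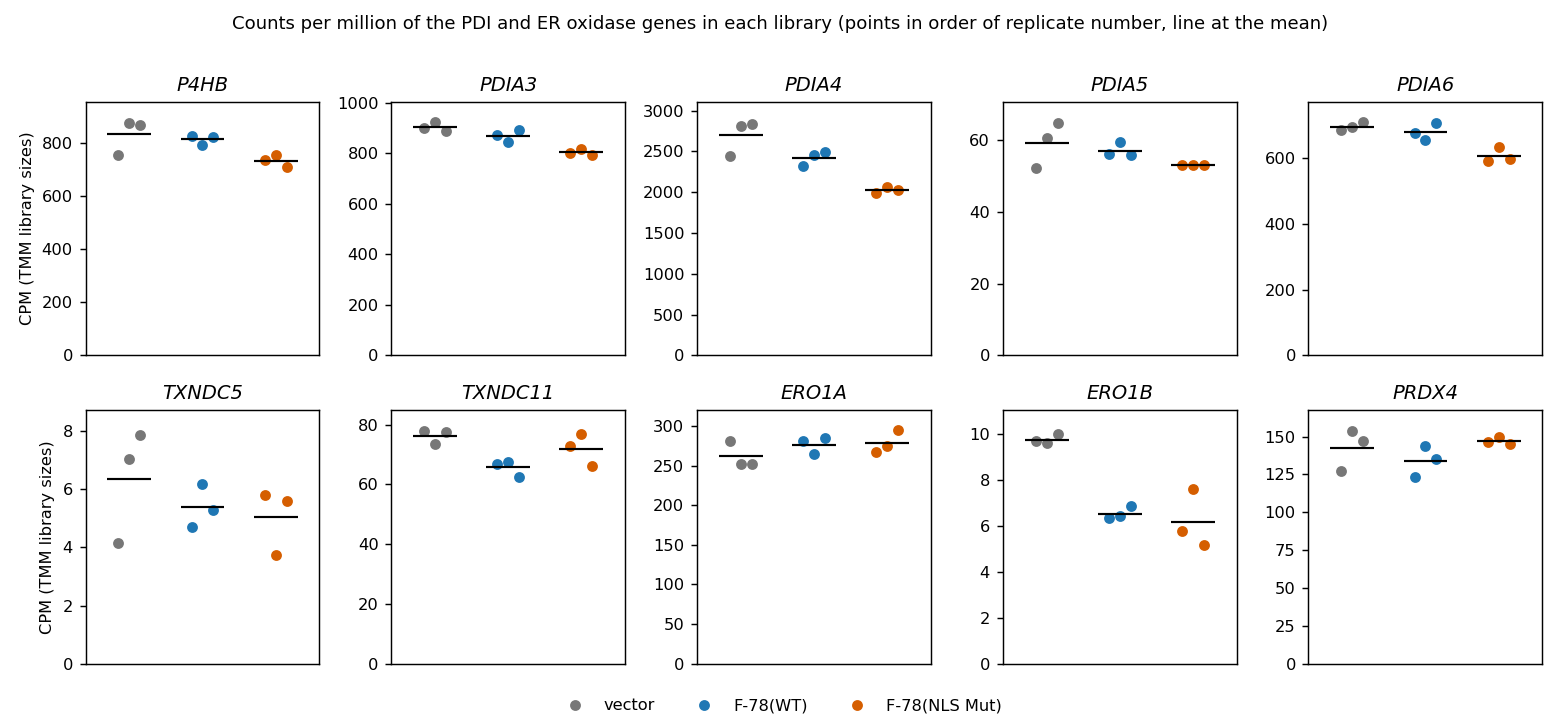
CPM of each gene in the 9 libraries, with the points of a group in the order of the replicate numbers, a line at the group mean and each axis starting at 0. The F-78(NLS Mut) libraries of PDIA4 lie at 1992 to 2066 CPM, below the other 6 libraries, and the vector libraries of ERO1B lie at 9.59 to 9.99 CPM, above the other 6.

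PDIA6 (also called P5), a PDI that binds GRP78 and acts on the UPR sensors, stood at 684, 693 and 708 CPM in vector, at 676, 655 and 707 with F-78(WT), and at 590.3, 633 and 597 with F-78(NLS Mut). The F-78(NLS Mut) libraries were again the lowest 3, while F-78(WT) and vector overlapped. F-78(NLS Mut) differed from vector by -0.20 on the log2 scale (SE 0.049, adjusted p = 0.052 by edgeR). This difference was called in 7 of 9 settings that kept every library. Among them were the replicate number as a block and the GC correction (-0.23, adjusted p = 0.0023 by edgeR). It was also called without vector replicate 1 (-0.21, adjusted p = 0.0026 by edgeR) or F-78(WT) replicate 1 (-0.20, adjusted p = 0.041 by edgeR) or 2 (-0.20, adjusted p = 0.038 by edgeR). Between the F-78 groups it was 0.16 (SE 0.049, adjusted p = 0.14 by edgeR). DESeq2 called that difference at 0.17 (adjusted p = 0.026), as did the GC correction (0.16, adjusted p = 0.029 by edgeR), the fit of only those 2 groups, and the fit without vector replicate 1 (0.17, adjusted p = 0.016 by edgeR).

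P4HB is the founding PDI, and its protein also serves as the β subunit of collagen prolyl 4-hydroxylase and as a subunit of the microsomal triglyceride transfer protein. It stood at 755, 877 and 870 CPM in vector, at 827, 794 and 824 with F-78(WT), and at 736, 756 and 712 with F-78(NLS Mut). Vector replicate 1 was as low as the F-78(NLS Mut) libraries, and the F-78(WT) libraries lay above the latter. The F-78 groups differed by 0.15 on the log2 scale (SE 0.053, adjusted p = 0.22 by edgeR), and F-78(NLS Mut) differed from vector by -0.18 (SE 0.053, adjusted p = 0.10 by edgeR). Without vector replicate 1 these were 0.16 (adjusted p = 0.016 by edgeR) and -0.26 (adjusted p = 1.6e-04 by edgeR). P4HB had the highest GC content of the 10 genes, 57.9%, and after the GC correction the same differences were 0.15 (adjusted p = 0.055 by edgeR) and -0.11 (adjusted p = 0.29 by edgeR), neither of which was called.

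PDIA3 (also called ERp57), which is bound by calnexin and calreticulin and acts on glycoproteins, was at 899, 923 and 887 CPM in vector, at 874, 844 and 891 with F-78(WT), and at 803, 818 and 791 with F-78(NLS Mut). The F-78(NLS Mut) libraries were the lowest 3 and the other groups overlapped. F-78(NLS Mut) differed from vector by -0.17 on the log2 scale (SE 0.046, adjusted p = 0.082 by edgeR), with calls in 4 of the 9 settings that kept every library and without vector replicate 1, at -0.18 (adjusted p = 0.0066 by edgeR). After the GC correction it was -0.20 (adjusted p = 0.0037 by edgeR). Between the F-78 groups it was 0.11 (SE 0.046, adjusted p = 0.30 by edgeR), and no setting called it. The processed pseudogene PDIA3P1 held 173 to 280 counts against 13942 to 25516 for PDIA3.

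PDIA5, a less studied PDI with 1 Cys-Gly-His-Cys site, was at 52.2, 60.7 and 65.0 CPM in vector, at 56.1, 59.5 and 55.9 with F-78(WT), and at 53.1, 53.2 and 53.1 with F-78(NLS Mut). The vector libraries spanned both other groups. The F-78 groups differed by 0.11 on the log2 scale (SE 0.083, adjusted p = 0.68 by edgeR), and the mutant group differed from vector by -0.16 (SE 0.082, adjusted p = 0.44 by edgeR), and no setting called either. P4HB, PDIA3, PDIA4, PDIA5 and PDIA6 together summed to 5191 ± 304 CPM in vector (SD, n = 3), 4845 ± 109 with F-78(WT) and 4229 ± 85.1 with F-78(NLS Mut). PDIA4 alone held 2699, 2424 and 2031 CPM of these sums in the same order. Among these genes only PDIA4 was called with the fit as reported, so the sums do not show a shift of the whole set.

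The level of PDIA4 was also set against that of its relatives within each library. The ratio of PDIA4 to P4HB per kilobase was 5.24 ± 0.0505 (SD, n = 3) in vector, 4.82 ± 0.242 with F-78(WT) and 4.48 ± 0.129 with F-78(NLS Mut). Its ratio to PDIA3 was 3.87 ± 0.314, 3.61 ± 0.164 and 3.27 ± 0.0576 in the same order. The libraries of vector and F-78(NLS Mut) did not overlap in either ratio, whereas the F-78 groups overlapped in the ratio to P4HB. These ratios are a description and were not tested. Their size depends on how reads were counted. With both strands summed the mean level of PDIA4 stayed at 728 CPM per kilobase, while P4HB rose from 150 to 226 and PDIA3 from 203 to 252.

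Neither of the 2 TXNDC genes passed the threshold in any comparison. TXNDC5 (also called ERp46), which introduces disulfides rapidly and has been linked to fibroblast activation, was at 4.16, 7.06 and 7.88 CPM in vector, at 4.70, 6.20 and 5.30 with F-78(WT), and at 5.82, 3.73 and 5.62 with F-78(NLS Mut). All 3 groups overlapped. It had 90 to 213 counts per library, from which reads in the bases shared with BLOC1S5-TXNDC5 may be missing. Its 95% interval between the F-78 groups ran from -0.36 to 0.58 on the log2 scale. A change of the size seen in PDIA4 was thus not detectable at these counts.

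TXNDC11, a membrane-anchored ER oxidoreductase known for a role in the disposal of misfolded proteins, was at 77.9, 73.4 and 77.5 CPM in vector, at 66.8, 67.6 and 62.6 with F-78(WT), and at 72.8, 76.99 and 66.1 with F-78(NLS Mut). The F-78(WT) libraries were all below vector, with F-78(NLS Mut) in between and overlapping both. F-78(WT) differed from vector by -0.22 on the log2 scale (SE 0.074, adjusted p = 0.21 by edgeR), and F-78(NLS Mut) by -0.08 (SE 0.074, adjusted p = 0.72 by edgeR). Between the F-78 groups it was -0.13 (SE 0.075, adjusted p = 0.52 by edgeR), opposite in sign to PDIA4.

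The 2 oxidases differed in level, and neither passed the threshold in any comparison with the fit as reported. ERO1A, the widely expressed form that is also induced by hypoxia, was at 280.5, 252 and 253 CPM in vector, at 281, 264 and 284 with F-78(WT), and at 267, 274 and 295 with F-78(NLS Mut). All groups overlapped. Its log2 fold change was 0.08 for F-78(WT) against vector (95% interval -0.04 to 0.20) and 0.09 for F-78(NLS Mut) against vector (-0.03 to 0.21). Between the F-78 groups it was -0.01 (-0.13 to 0.11), an interval that does not reach the 0.26 of PDIA4.

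ERO1B, the form best known from the pancreas and from UPR induction, was at 9.70, 9.59 and 9.99 CPM in vector, at 6.33, 6.43 and 6.85 with F-78(WT), and at 5.77, 7.61 and 5.16 with F-78(NLS Mut). Every vector library was above every F-78 library, and the F-78 groups overlapped. On the log2 scale F-78(WT) differed from vector by -0.58 (SE 0.17, adjusted p = 0.12 by edgeR), and F-78(NLS Mut) differed from it by -0.65 (SE 0.17, adjusted p = 0.069 by edgeR). Neither passed the threshold, although these were the largest estimates among the 10 genes, at 91 to 270 counts per library. ERO1B had the lowest GC content of the 10, 37.5%, and with the GC correction both were called, at -0.65 (adjusted p = 0.046 by edgeR) and -0.75 (adjusted p = 0.016 by edgeR). Without vector replicate 1, F-78(NLS Mut) was called at -0.66 (adjusted p = 0.037 by edgeR) and F-78(WT), at -0.59, was not (adjusted p = 0.058 by edgeR).

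The ratio of ERO1A to ERO1B per kilobase was 19.1 ± 1.33 in vector (SD, n = 3), 30.1 ± 1.29 with F-78(WT) and 33.0 ± 7.46 with F-78(NLS Mut). The highest vector library had a ratio of 20.5 and the lowest F-78 library one of 25.6. This difference was seen in the levels and was not tested.

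PRDX4, the peroxiredoxin of the ER, was at 127, 154 and 147 CPM in vector, at 123, 144 and 135 with F-78(WT), and at 146, 149.8 and 145 with F-78(NLS Mut). The F-78(WT) libraries lay below the F-78(NLS Mut) libraries, and vector overlapped both groups. Its log2 fold change between the F-78 groups was -0.13 (SE 0.071, adjusted p = 0.48 by edgeR), and no setting called it. Relative to vector, F-78(WT) was at -0.09 (adjusted p = 0.68 by edgeR) and the mutant group at 0.04 (adjusted p = 0.87 by edgeR), and the latter was at -0.04 without vector replicate 1.

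**Figure D4:**
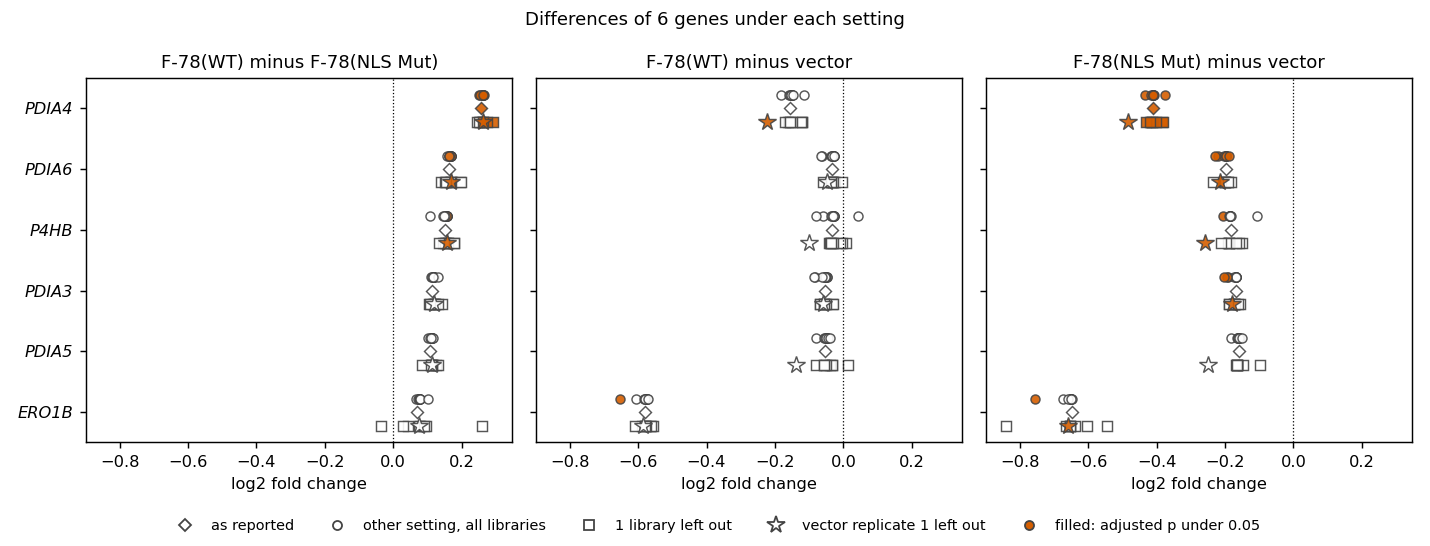
Log2 fold change of 6 genes under the fit as reported (diamonds), 9 other settings with all libraries (circles) and 9 fits without 1 library (squares, and a star without vector replicate 1), filled where the adjusted p was under 0.05. PDIA4 keeps its sign throughout. Leaving out vector replicate 1 turns on calls for P4HB, PDIA3, PDIA6 and ERO1B in F-78(NLS Mut) against vector. It also turns on a call for PDIA4 in F-78(WT) against vector, and for P4HB and PDIA6 between the F-78 groups.

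Of the other PDI family genes, 13 of 15 had enough counts to test, and PDILT and AGR3 were at 0 in all libraries. AGR2, an atypical PDI needed for mucin folding, was called in both comparisons with vector. It stood at 13.9, 15.3 and 15.6 CPM in vector, at 8.95, 9.86 and 7.62 with F-78(WT), and at 9.97, 9.37 and 10.6 with F-78(NLS Mut), so the vector libraries were all highest. F-78(WT) differed from vector by -0.76 on the log2 scale (SE 0.14, adjusted p = 0.0076 by edgeR), and the mutant group by -0.59 (SE 0.14, adjusted p = 0.042 by edgeR). The latter missed the threshold without any 1 of 5 libraries (vector replicate 2 or 3, or any F-78(NLS Mut) replicate), with values from -0.63 to -0.55, and the former without any 1 of 4. None of the 13 was called between the F-78 groups, where 3 values were positive and 10 negative, with a median of -0.06. The most abundant per kilobase were TMX2 at 28.9 CPM per kilobase and ERP29 at 27.7.

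Of the other ER redox genes 9 of 10 were tested, and edgeR called none in any comparison. SELENOF and SELENOM, selenoproteins of the ER, were the most abundant at 45.1 and 39.3 CPM per kilobase. DESeq2 called none either. An unadjusted p under 0.05 was reached by 0 of the 9 between the F-78 groups, by 0 in F-78(WT) against vector and by 2 in F-78(NLS Mut) against vector. The values between the F-78 groups were positive for 2 and negative for 7, with a median of -0.07.

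The partners of the PDIs include calreticulin and calnexin, which recruit PDIA3, and the α subunits of prolyl 4-hydroxylase, which bind P4HB. CALR was called lower with F-78(NLS Mut) than with vector, by -0.23 on the log2 scale (SE 0.049, adjusted p = 0.018 by edgeR), and missed the threshold without vector replicate 2 or 3 or F-78(NLS Mut) replicate 1 or 3, at -0.23 to -0.20. It stood at 1861, 2183 and 2174 CPM in vector, at 1804, 1876 and 1821 with F-78(WT), and at 1746, 1821 and 1727 with F-78(NLS Mut), so all F-78(NLS Mut) libraries were below vector. The F-78(WT) difference from vector was -0.18 (adjusted p = 0.11 by edgeR), and it was called with library size alone, with no filter, with the replicate block (adjusted p = 0.041 by edgeR) and without vector replicate 1 (-0.25, adjusted p = 1.3e-05 by edgeR). CALR differed by 0.06 between the F-78 groups (adjusted p = 0.74 by edgeR). CANX was at 1098 to 1183 CPM across all libraries, with log2 fold changes of -0.02 to 0.01. No other partner of the 6 tested was called.

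Of 5 regulators, DDIT3, the gene of the UPR factor CHOP and an activator of ERO1A, was called lower with F-78(WT) than with vector. Its levels were 49.1, 49.1 and 55.3 CPM in vector, 29.9, 35.5 and 33.7 with F-78(WT), and 39.8, 44.2 and 43.9 with F-78(NLS Mut), so the 3 groups did not overlap. F-78(WT) differed from vector by -0.63 on the log2 scale (SE 0.091, adjusted p = 3.3e-04 by edgeR). The 9 settings with all libraries each called this difference, with values from -0.66 to -0.44. The mutant group differed from vector by -0.26 (adjusted p = 0.19 by edgeR). Between the F-78 groups it was -0.37 (adjusted p = 0.061 by edgeR), and 6 of 9 settings with all libraries called it. With both strands summed it was -0.21 (adjusted p = 0.21 by edgeR), and without vector replicate 1 it was -0.36 (adjusted p = 0.019 by edgeR). Leaving out F-78(WT) replicate 2 also gave a call, at -0.42 (adjusted p = 0.048 by edgeR). ATF4, XBP1, ATF6 and HIF1A were not called in any comparison, and ATF4 and XBP1 were the most abundant of the list at 156 and 127 CPM per kilobase.

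Promoter windows from 250 bases before to 50 after the start were found for 9 of the 10 genes (all but PDIA3) in the RefSeq table (GRCh38.p14), 12 windows in all, and were searched on both strands. The ER stress response element (ERSE), bound by NF-Y and ATF6, was searched as CCAAT, any 9 bases and CCACG. An exact match was in windows of PDIA6 and ERO1B, against 0.0769% of 35116 promoters. They are shown because they were the exact matches found, with CCAAT and CCACG or their reverse complements in capitals.

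PDIA6 (chr2:10812848-10812876, minus strand, forward): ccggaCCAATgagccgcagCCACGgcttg

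ERO1B (chr1:236282178-236282206, minus strand, reversed): gcccgCGTGGtcccgcctcATTGGccgcc

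Counted from the start, the matches began at -86 in PDIA6 and at -243 in ERO1B. CCAAT alone was in 5 of the 9 genes, among them PDIA4 and P4HB, and in 34.6% of all promoters. CCACG alone was in 7 of the 9 and in 38.1%. ACGTG was in 7 of the 9 and in 21.4%. The E-box CANNTG was in 5 of the 9 genes, ERO1B, PDIA5, PDIA4, ERO1A and PRDX4, and in 68.7% of all promoters. In PDIA5 and PRDX4 an E-box overlapped a match to ACGTG. Genes with more than 1 window had more chances of a match than a single promoter, and the matches were not tested against the levels.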

How the data were processed

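RNA was sequenced in 9 libraries of H1975 cells, 3 per group. The authors deposited raw counts per gene, without normalization, and the submitters' processing notes name STAR 2.7.9a, DESeq2 1.36.0 and GRCh38.p14. Counts made without regard to strand were taken, because reads fell evenly on both strands (50.6% to 51.9% on the forward one). Summary lines that name no gene held 27.6% to 30.7% of reads and were left out. Libraries had 17671055 to 27476298 counted reads (median 22366490).

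Counts were scaled by TMM and fitted with edgeR 4.0.16 (R 4.3.3, limma 3.58.1) in 1 quasi-likelihood model of all 9 libraries after filterByExpr, with Benjamini-Hochberg adjustment over 18653 genes and a threshold of 0.05. Intervals are 95%. The study's main text does not state its RNA-Seq test. Annotation was GENCODE release 29, which held 58342 of the 61544 genes, and 61445 had a symbol. Promoters came from RefSeq. Figures used matplotlib 3.10.9. The fits were tested on simulated data.

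The genes, lists and tests were chosen with earlier results of these data known. Named were the 10 genes, HSPA5, HSP90B1, the called genes of 4 related lists and their 2 most abundant genes. CDH1, KRT8, KRT18, KRT19, EPCAM, PDILT, AGR3 and the remaining regulators were named after their values were seen. Deviations of libraries with the same replicate number correlated at -0.02 to 0.06, and those with different numbers at -0.05 to 0.02. Correlations this weak cannot decide whether the numbers pair the samples. The main fit had no pairing, and the replicate block was an alternative. Replicates differed by more than sampling noise. Alternatives were DESeq2 1.42.0, its size factors, library size alone, other filters, only the 2 groups compared, a replicate block, both strands summed, a GC correction and leaving out each library.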

Additional observations from a re-analysis of the deposited data

How the results depend on the processing

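A group size of 3 libraries and a low count in ERO1B and TXNDC5 limit what these data can show, and vector replicate 1 had the largest influence. Over all genes, 94, 104 and 148 were called between the 2 F-78 groups, in F-78(WT) against vector and in F-78(NLS Mut) against vector. Settings with all libraries gave 85 to 413, 26 to 289 and 143 to 430, and leaving out 1 library gave 27 to 388, 19 to 1256 and 33 to 1002, each highest without vector replicate 1. The cause was not tested.

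Of the 10 genes, 1, 0 and 1 were called in the same order. Between the F-78 groups there were 2 with DESeq2 or the GC correction, 3 with only the 2 groups compared, and 0 to 3 without 1 library. For F-78(WT) against vector there was 1 with the GC correction and 0 to 1 without 1 library. For F-78(NLS Mut) against vector there were 4 with DESeq2, library size alone or the GC correction, 3 with both strands summed, 2 with no filter, with at least 1 CPM in 3 libraries or with the replicate block, and 1 to 5 without 1 library. The replicate block gave 212, 232 and 230 calls over all genes and changed no other count of the 10.

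In the 4 related lists, 0, 2 and 2 genes were called. DESeq2, both other filters, only the 2 groups compared, the replicate block and the GC correction each gave 1 between the F-78 groups. For F-78(WT) against vector there were 5 with no filter and 4 with the replicate block. Without 1 library there were 0 to 1, 1 to 9 and 0 to 4.

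The mean of PDIA5 with F-78(NLS Mut), 53.1 CPM, was 53.0 with DESeq2 size factors and 52.9 with library size alone, more than its small SD of 0.0756. Values near 0 changed sign. ERO1A between the F-78 groups was 0.0018 with both strands summed and 0.0041 with the GC correction. P4HB in F-78(WT) against vector was 0.041 with the GC correction, and HSP90B1 was 0.0017 with both strands summed. Without 1 library, between the F-78 groups TXNDC5 lay between -0.075 and 0.24, ERO1A between -0.032 and 0.035 and ERO1B between -0.036 and 0.26. In F-78(WT) against vector P4HB lay between -0.10 and 0.0090, PDIA5 between -0.14 and 0.015 and HSP90B1 between -0.035 and 0.018, and in F-78(NLS Mut) against vector PRDX4 between -0.038 and 0.098. None of these values was called. Of 405 log2 fold changes recomputed with all libraries (15 genes in 3 comparisons under 9 settings), 369 kept their direction and side of the threshold, as did 367 of 405 without 1 library.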
